A study of Mus musculus with 2 samples.

Results

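S100A genes encode small calcium-binding proteins with EF hands that act mostly as dimers on partner proteins, and 10 of them were examined here in the neonatal epidermis of Chrm3 KO mice: S100a3, S100a4, S100a6, S100a8, S100a9, S100a10, S100a11, S100a13, S100a14 and S100a16. The members were found by symbol among the 27998 gene rows of both count matrices, with 1 row each. The data were single-cell RNA sequencing (scRNA-seq) libraries of the epidermis of 2 male mice (mouse 1 and mouse 2, 1 library each), strain C57BL/6J, at postnatal day 0, which both carried the Chrm3 KO genotype. Chrm3 encodes the M3 muscarinic acetylcholine receptor. The labels describe neither how the gene was disrupted nor a cell type in which the disruption was made. Wild-type libraries were not analysed here, so the comparisons below are between cell classes within KO epidermis and no genotype difference was tested.

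After separation from the dermis and removal of dead cells, the libraries held 10816 and 15867 barcodes with 109756784 and 166441732 unique molecular identifiers (UMIs, each marking 1 captured transcript). A filter of 900 to 7700 genes and of less than 10% mitochondrial UMIs left 7607 and 11881 cells with a median of 10480 and 10577 UMIs. The libraries shared 127 barcodes, 34 of them among kept cells, and 4 of these fell in the same class in both libraries. UMIs assigned to Chrm3 numbered 13 and 19 in kept cells, which is 0.137 and 0.128 CPM (a level, as UMIs of the gene over all UMIs counted, on a fixed scale). A 3′ UMI does not tell whether the disrupted part of Chrm3 was transcribed. Cells were clustered without any S100 gene and named from marker lists, giving 18 named classes and 9 unnamed clusters, which held 36.1% and 35.7% of kept cells and entered no comparison. Krt14 stood at 18360 and 19800 CPM in basal 1, Krt10 at 28480 and 27430 CPM in differentiated IFE, and Lor at 19830 and 15180 CPM in terminally differentiated IFE. Cd207, the langerin gene that defines Langerhans cells, had 6 UMIs in mouse 1 and 0 in mouse 2 in the Langerhans cell-like class, although Cd74 reached 8260 and 4989 CPM. Of the 15 listed markers 15 and 14 were detected there, Cd207 among them in mouse 1. Here and below, a listed marker counts as detected from 1 UMI in the class and mouse, so such a count is weak evidence for a name.

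S100 proteins sense calcium through EF hands and change shape when calcium binds, which exposes a surface for target proteins. S100a10 is the exception, since its EF hands no longer bind calcium and it sits permanently in a complex with annexin A2. S100a11 pairs with annexin A1 and is a substrate of transglutaminases that build the cornified envelope. S100a8 and S100a9 form calprotectin, a secreted alarmin complex of myeloid cells that stressed keratinocytes (KCs) also make. S100a4 binds nonmuscle myosin IIA and is typical of motile mesenchymal and immune cells. Most genes of the family lie in the epidermal differentiation complex, the gene cluster that also holds loricrin, filaggrin and the late cornified envelope genes.

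All 10 members lay on chromosome 3 of GRCm38 (mm10) in the GENCODE M21 annotation. S100a13 (90514435 to 90524581), S100a14 (90526856 to 90528837) and S100a16 (90537254 to 90543151) opened the run on the plus strand. S100a3 (90560578 to 90602702), S100a4 (90603771 to 90606045), S100a6 (90612882 to 90624181) and S100a8 (90668978 to 90670035) followed on the same strand, and S100a9 (90692632 to 90695721) lay on the minus strand. S100a11 (93520488 to 93526287) and S100a10 (93555080 to 93564643) lay apart from the others and next to each other on the plus strand. The annotated span of S100a3 overlaps S100a2, and S100a11 has a processed pseudogene, so the counts of these members are less certain.

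Promoter sequences of 5 members are shown as examples, S100a9 among them as the partner of S100a8. S100a6 and S100a13 also differed clearly between classes but are not shown. Every sequence shown holds at least 1 match to the motifs below, so the choice is not a sample of the members. The sequences were taken from the RefSeq promoter table (GRCm38.p6), which holds 8 of the 10 members. S100a10 and S100a14 had no entry. Each sequence covers the 250 bases before an annotated start, 5′ to 3′ on the strand of the gene. Capitals mark matches to 4 motifs. The AP-1 motif, searched on both strands, was TGANTCA. The grainyhead-like motif was AACCNGTT and the C/EBP motif TTGCNNAA, both also searched on both strands. The TATA box, searched on the strand of the gene only, was TATAAA. None of the capitals overlap another motif.
S100a11, chr3:93520246-93520495, plus strand: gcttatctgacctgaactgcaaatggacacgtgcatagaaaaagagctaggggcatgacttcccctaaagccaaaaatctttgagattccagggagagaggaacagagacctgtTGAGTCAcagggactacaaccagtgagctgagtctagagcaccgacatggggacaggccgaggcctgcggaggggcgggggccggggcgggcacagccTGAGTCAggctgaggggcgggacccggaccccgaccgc
S100a16, the downstream annotated start, chr3:90540896-90541145, plus strand: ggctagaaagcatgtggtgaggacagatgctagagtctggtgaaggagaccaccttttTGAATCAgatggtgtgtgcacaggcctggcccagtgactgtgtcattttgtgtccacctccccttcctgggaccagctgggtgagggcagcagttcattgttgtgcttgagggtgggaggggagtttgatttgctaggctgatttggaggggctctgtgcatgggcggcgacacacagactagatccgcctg
S100a4, chr3:90603520-90603769, plus strand: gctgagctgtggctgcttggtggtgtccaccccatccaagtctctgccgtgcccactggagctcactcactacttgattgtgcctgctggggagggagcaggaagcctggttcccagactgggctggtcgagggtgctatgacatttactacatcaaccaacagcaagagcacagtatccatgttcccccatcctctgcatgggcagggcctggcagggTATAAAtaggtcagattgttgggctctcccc
S100a8, chr3:90668821-90669070, plus strand: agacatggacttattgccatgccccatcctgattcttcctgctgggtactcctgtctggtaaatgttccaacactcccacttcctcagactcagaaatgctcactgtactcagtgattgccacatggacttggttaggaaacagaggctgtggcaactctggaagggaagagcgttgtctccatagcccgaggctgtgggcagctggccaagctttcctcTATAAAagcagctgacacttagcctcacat
S100a9, chr3:90695722-90695971, minus strand: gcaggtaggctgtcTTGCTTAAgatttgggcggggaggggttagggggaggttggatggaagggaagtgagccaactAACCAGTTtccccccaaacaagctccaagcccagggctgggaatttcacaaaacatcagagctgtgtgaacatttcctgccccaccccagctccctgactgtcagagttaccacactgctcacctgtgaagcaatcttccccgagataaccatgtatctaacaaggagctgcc

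Counting the base before the start as -1, the AP-1 letters of S100a11 began at -136 and -38, and those of S100a16 at -192. Of 32817 mouse promoters of this length, 6.75% held the AP-1 letters. TATAAA began at -31 in S100a4 and at -30 in S100a8, and 7.6% of promoters held it. In S100a9, AACCNGTT began at -173 and TTGCNNAA at -236, which were held by 1.78% and 9.57% of promoters. The windows of S100a6, S100a13 and the upstream start of S100a16 held none of the 4 motifs, and 1 of the 4 annotated starts of S100a3 had AACCNGTT at -113 and TATAAA at -52. A match is a string of letters and not a measured binding site.

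For the tests, UMIs were summed per mouse and class, and 34 sums of 17 classes with at least 30 cells in each mouse entered 1 edgeR fit of 13788 genes. All 10 members passed the filter on low counts. Basal IFE is the mean of the 4 named basal subtypes (basal 1, basal 2, basal aberrant and basal proliferating). Most comparisons share these basal sums, so they are not independent of each other. Levels in CPM were scaled to plain totals, whereas log2 differences used TMM factors, and these scales can therefore differ. Adjusted p-values are Benjamini-Hochberg values of edgeR's quasi-likelihood F-test over all genes tested, and a gene was called at an adjusted p under 0.05.

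S100a11, S100a14 and S100a16 rose together from basal through transition to differentiated IFE, while S100a13 fell. S100a16, a broadly expressed epithelial member, stood at 394 and 423 CPM in basal IFE of mouse 1 and mouse 2, at 745 and 805 CPM in transition 1, and at 1042 and 1034 CPM in differentiated IFE. The values of the stages did not overlap between the mice. Against basal IFE, S100a16 was higher by 1.07 ± 0.0799 on the log2 scale in transition 1 (SE, adjusted p = 9.32e-12, edgeR) and by 1.62 ± 0.0773 in differentiated IFE (adjusted p = 2.88e-17, edgeR). S100a11 stood at 971 and 911 CPM in basal IFE, at 1531 and 1505 CPM in transition 1 and at 1949 and 1903 CPM in differentiated IFE. The log2 differences of S100a11 were 0.84 ± 0.0898 (adjusted p = 1.25e-08, edgeR) and 1.31 ± 0.0873 (adjusted p = 7.39e-14, edgeR). S100a14, an epithelial member linked to KC differentiation, went from 267 and 273 CPM in basal IFE to 439 and 430.3 CPM in transition 1 and 681 and 577.5 CPM in differentiated IFE. Its log2 differences were 0.84 ± 0.0946 (adjusted p = 3.71e-08, edgeR) and 1.497 ± 0.0903 (adjusted p = 7.51e-15, edgeR). For these 3 genes every mouse value in transition 1 lay above every basal subtype and below differentiated IFE.

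**Figure D1:**
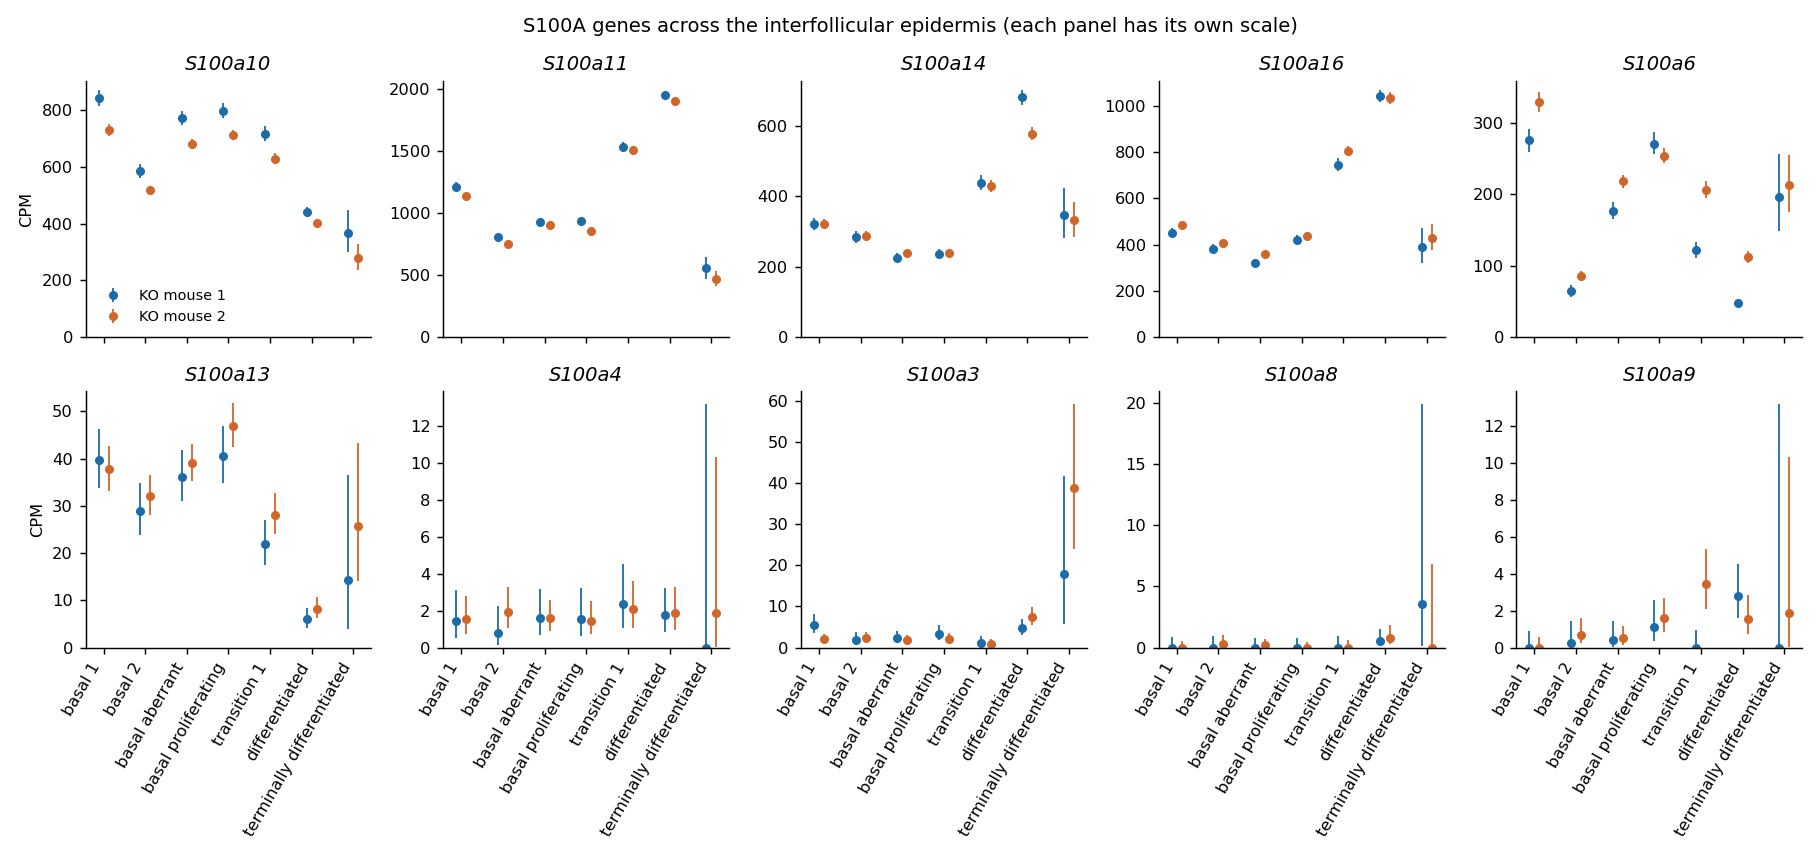
CPM of each member (y axis, 1 panel per gene, scales differ) across 7 stages of the IFE (x axis), with 1 point per mouse and exact 95% Poisson intervals of the UMI count as bars. S100a11, S100a14 and S100a16 climbed to differentiated IFE and were lower in terminally differentiated IFE, whereas S100a13 ran from 39.7 and 37.7 CPM in basal 1 to 6.08 and 8.25 CPM in differentiated IFE.

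S100a13, which takes part in the unconventional release of fibroblast growth factor 1 and interleukin 1 alpha, showed the opposite course. Its level was 36.3 and 39.0 CPM in basal IFE, 21.8 and 28.2 CPM in transition 1, and 6.08 and 8.25 CPM in differentiated IFE, with no overlap between stages. It fell by 0.43 ± 0.145 on the log2 scale in transition 1 (adjusted p = 0.0251, edgeR) and by 2.12 ± 0.180 in differentiated IFE (adjusted p = 1.96e-11, edgeR). With only cells under 5% mitochondrial UMIs summed, the transition 1 difference was -0.58 and was not called (adjusted p = 0.135, edgeR). S100a10 was at 749.7 and 660.1 CPM in basal IFE and at 717 and 629 CPM in transition 1, a log2 difference of 0.08 that did not pass the test (adjusted p = 0.566, edgeR). In differentiated IFE it was at 440.4 and 401 CPM, and it fell by 0.47 ± 0.0923 on the log2 scale (adjusted p = 7.01e-05, edgeR), or by 0.73 when sums were scaled to plain totals.

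The ratio of the neighbouring genes S100a10 and S100a11 was lowest in the middle of the IFE series and not at its end. In UMIs of S100a10 to S100a11 it was 0.695 and 0.641 in basal 1, 0.730 and 0.693 in basal 2, 0.829 and 0.756 in basal aberrant and 0.851 and 0.830 in basal proliferating KCs. It was 0.469 and 0.418 in transition 1 and 0.226 and 0.211 in differentiated IFE, but 0.665 and 0.592 in terminally differentiated IFE, next to the basal 1 values. The terminally differentiated values rest on 103 S100a10 and 155 S100a11 UMIs in mouse 1 and on 151 and 255 in mouse 2. Cells named so in the second round of clustering only are not in this class. They held 550 and 1294 UMIs in mouse 1 and 1506 and 2841 in mouse 2, so counting them would lower the ratio. The ratio was 0.121 and 0.0986 in IFE cells with upper follicle markers, a small class of 32 and 42 cells. The ratio is a description of the same gene pair in each class and was not tested.

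S100a6 (calcyclin), a member enriched in dividing and mesenchymal cells, differed among the basal subtypes. In basal 1 it was at 275 and 329 CPM, in basal proliferating at 271 and 254 CPM, in basal aberrant at 177 and 218 CPM and in basal 2 at 64.2 and 85.1 CPM. The basal 2 values lay below those of the other 3 basal subtypes in both mice. With each cell thinned to 3000 UMIs, 47.6% and 49.2% of basal 1 cells but 15.4% and 19.7% of basal 2 cells had an S100a6 UMI (77.4% and 77.6% against 32.9% and 41.0% before thinning). In transition 1 the mice differed widely (121 and 206 CPM) and the log2 difference from basal IFE was -0.03 (adjusted p = 1, edgeR). In differentiated IFE it was at 48.0 and 111.5 CPM and fell by 0.95 ± 0.258 on the log2 scale (adjusted p = 0.00223, edgeR), while with only cells under 5% mitochondrial UMIs summed the difference was -0.81 and not called (adjusted p = 0.058, edgeR).

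Of the 10 members, 4 were called higher and 1 lower in transition 1, where 30% of all genes were called (14.9% higher and 15% lower). The median log2 difference of the members was 0.37 against -0.01 over all genes, and 0.65 over the 9 members with enough UMIs for a fold. The upward calls and both member medians in transition 1 include S100a9, which had 20 UMIs in 5 cells of mouse 2 and 0 in mouse 1. In differentiated IFE, 6 members were called higher and 3 lower, where 55.8% of all genes were called (28.6% higher and 27.2% lower). The median there was 1.40 against 0 over all genes. The count in differentiated IFE includes S100a8 and S100a9, whose calls rest on a handful of cells described with the alarmins, and S100a3, whose UMIs also sat in few cells. The other calls in differentiated IFE were S100a11, S100a14 and S100a16 upward and S100a6, S100a10 and S100a13 downward. S100a4 was near 0 in all IFE classes, between 0 and 2.37 CPM in the named ones.

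In terminally differentiated IFE (43 and 49 cells), the 3 genes that had risen were lower than in differentiated IFE. The class was shallow, with a median of 4080 and 8990 UMIs per cell against 19391 and 17767 in differentiated IFE. Its S100a14 and S100a16 levels lay near those of all kept cells (346 and 309.5 CPM, 386 and 388 CPM). Its S100a11 level lay below that of all kept cells (814 and 776 CPM). Whether stray transcripts in shallow cells took part was not tested. S100a11 was at 554 and 471 CPM in terminally differentiated IFE, against 1949 and 1903 CPM in differentiated IFE, and it fell by 2.31 ± 0.135 on the log2 scale (adjusted p = 7.00e-14, edgeR). S100a16 was at 389.7 and 428 CPM and fell by 1.72 ± 0.123 (adjusted p = 5.27e-12, edgeR). S100a14 was at 347 and 332 CPM and fell by 1.28 ± 0.146 (adjusted p = 5.70e-08, edgeR). S100a10 was at 368 and 279 CPM and fell by 0.80 ± 0.133 (adjusted p = 2.80e-05, edgeR). S100a13 was higher, at 14.3 and 25.8 CPM on 4 and 14 UMIs, by 1.22 ± 0.454 (adjusted p = 0.0451, edgeR), and by 0.82 with only cells under 5% mitochondrial UMIs, which was not called (adjusted p = 0.377, edgeR). S100a6 stood at 197 and 212 CPM, above both differentiated values, and its log2 difference of 0.99 ± 0.385 missed the threshold (adjusted p = 0.0584, edgeR), whereas it was called with the mouse as a block (0.98, adjusted p = 0.00304, edgeR), with RLE factors (1.10), plain totals (1.36), DESeq2 (1.09) and no filter on low counts (1.03).

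Thus 2 members were called higher and 4 lower, where 26.3% of all genes were called (12.8% higher and 13.6% lower), with a median of -0.86 over the members and -0.02 over all genes. The class holds cells named terminally differentiated in both rounds of clustering, a requirement set after seeing the data. The wider definition, by the second round alone, added 153 cells of which 50% and 62.8% were called doublets. With it S100a10 moved to -0.155 (adjusted p = 0.297, edgeR) and S100a3 to -0.04 (adjusted p = 0.991, edgeR). S100a6 was called higher with the wider definition, at 1.48 (adjusted p = 4.74e-04, edgeR).

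Basal proliferating KCs differed little from basal 1 and basal 2 in these genes. S100a14 was at 236 and 240.0 CPM, below its values in basal 1 (322 and 323 CPM) and basal 2 (283.5 and 287.5 CPM), and fell by 0.48 ± 0.112 on the log2 scale (adjusted p = 0.00143, edgeR). S100a6 was higher by 0.67 ± 0.253 (adjusted p = 0.0465, edgeR), but basal 1 alone was at 275 and 329 CPM beside 271 and 254 CPM in basal proliferating KCs, and the difference was of like size but not called with DESeq2 (0.65), without called doublets (0.65) and at clustering resolution 1.2 (0.57). S100a11, S100a16 and S100a10 were not called, with a log2 difference of -0.21 for S100a11 (adjusted p = 0.130, edgeR) and of -0.13 for S100a16. With the mouse as a block, S100a11 was called lower (-0.21, adjusted p = 0.0379, edgeR). In all, 2 members were called higher (S100a6 and, on 5 and 13 UMIs, S100a9) and 1 lower, where 29.3% of all genes were called (17.2% higher and 12.2% lower).

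S100a6 differed in level between the follicle classes. In upper follicle-like cells, the KCs of the follicle opening marked by Krt79 (13070 and 8752 CPM), S100a6 reached 1031 and 1276 CPM against 197 and 222 CPM in basal IFE. It was higher by 2.51 ± 0.202 on the log2 scale (adjusted p = 8.64e-12, edgeR). IFE cells with upper follicle markers had only 76.5 and 104 CPM, within the range of differentiated IFE, so the 2 classes that shared those markers were far apart in S100a6. S100a14 was at 711 and 581 CPM in upper follicle-like cells, higher by 1.15 ± 0.0917 (adjusted p = 7.68e-12, edgeR), and S100a16 at 730.4 and 709.7 CPM, higher by 0.70 ± 0.0813 (adjusted p = 1.94e-08, edgeR). S100a11 did not pass the test (1061 and 1057 CPM, log2 difference 0.06, adjusted p = 0.643, edgeR). S100a10 was at 330.5 and 339.6 CPM and fell by 1.19 ± 0.0971 (adjusted p = 1.28e-11, edgeR), and S100a13 fell by 0.88 ± 0.141 (adjusted p = 4.54e-06, edgeR). In all, 4 members were called higher and 2 lower, where 47.5% of all genes were called (25.9% higher and 21.6% lower).

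Hair follicle-like cells, marked by Shh (184 and 190.4 CPM), were lower than basal IFE in 6 members. S100a16 was at 149.7 and 165 CPM, lower than in basal IFE by 1.53 ± 0.0966 on the log2 scale (adjusted p = 7.96e-14, edgeR). S100a11 was at 455 and 514.5 CPM and fell by 1.10 ± 0.103 (adjusted p = 4.27e-10, edgeR), and S100a10 at 377 and 392 CPM and fell by 1.02 ± 0.0960 (adjusted p = 4.74e-10, edgeR). S100a13 fell by 1.02 ± 0.145 (17.0 and 23.4 CPM, adjusted p = 1.18e-06, edgeR) and S100a14 by 0.50 ± 0.104 (222.5 and 201 CPM, adjusted p = 2.39e-04, edgeR). S100a6 was at 90.2 and 125 CPM and was called lower by 0.94 ± 0.254 (adjusted p = 0.00385, edgeR), yet dividing hair follicle-like cells were at 361 and 483 CPM. At resolution 1.2 the S100a6 difference was 0.14 (adjusted p = 0.613, edgeR). With only cells under 5% mitochondrial UMIs, the differences of S100a6 (-0.85, adjusted p = 0.0823, edgeR) and S100a14 (-0.37, adjusted p = 0.0963, edgeR) were not called. Of the members, 6 were called lower and 1 higher, where 38.2% of all genes were called (20.1% higher and 18.1% lower), and the member median was -0.96 against 0 over all genes. The upward call was S100a9, on 5 and 41 UMIs.

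The remaining follicle and gland classes were not tested against basal IFE and are given as levels. Sebaceous-like cells had the lowest S100a10 of the 18 classes (59.0 and 83.5 CPM) beside S100a14 at 615 and 557 CPM and S100a16 at 565 and 562 CPM. Their S100a11 was at 168 and 201 CPM, so S100a11 was low where S100a14 and S100a16 were high. Inner root sheath and hair shaft-like cells had S100a10 at 213 and 201 CPM, S100a11 at 209.7 and 250 CPM, S100a14 at 315 and 300.2 CPM and S100a16 at 303 and 365 CPM. S100a3, known as a protein of the hair cuticle, stood at 16.9 and 6.58 CPM in this class, and 37 of its 89 UMIs in mouse 1 came from 1 cell.

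**Figure D2:**
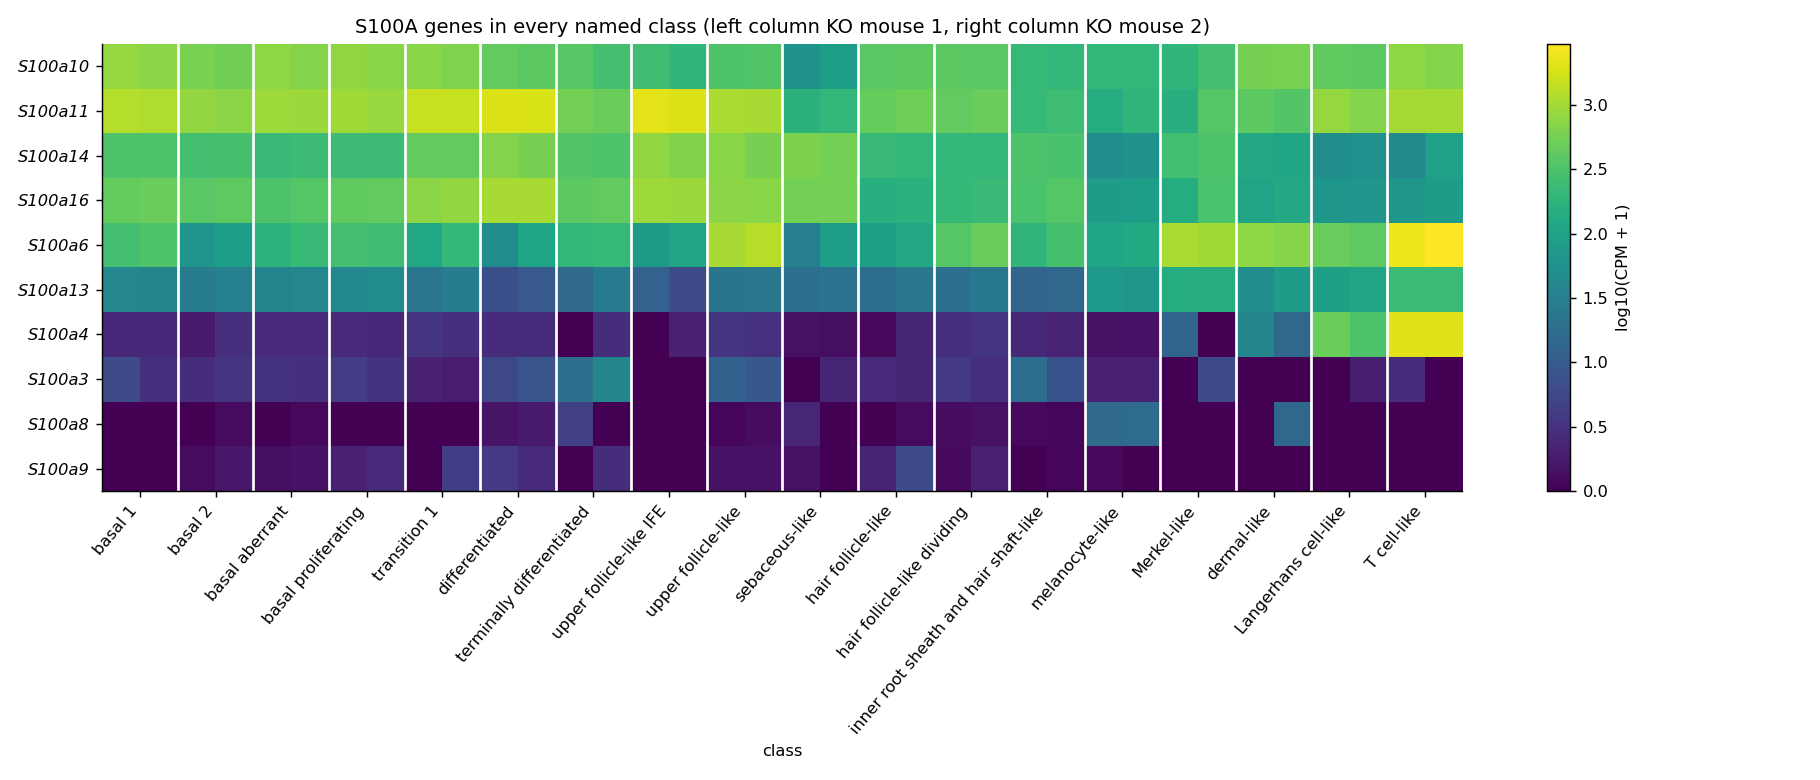
Heat map of log10(CPM + 1) for the 10 members (rows) in the 18 named classes (columns, mouse 1 and mouse 2 side by side). S100a4 was brightest in T cell-like and Langerhans cell-like cells, S100a8 in melanocyte-like cells, and S100a14 and S100a16 in the KC classes.

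The 2 immune classes stood out in S100a4. In T cell-like cells (52 and 38 cells, with Cd3g at 3998 and 3552 CPM and all 8 measured markers detected) S100a4 was at 2063 and 2013 CPM, on 1153 and 832 UMIs, and every T cell-like cell had a UMI of it before and after thinning to 3000 UMIs. In melanocyte-like cells, which served as a reference for stray transcripts, 0.458% and 0.550% of cells had a UMI (0.236% and 0% after thinning), at median depths of 8786 and 9667 UMIs against 9303 and 8486 in T cell-like cells. In Langerhans cell-like cells S100a4 was at 488 and 317 CPM, and 70.3% and 60.1% of cells had a UMI (49.3% and 39.4% after thinning), at median depths of 9639 and 9802 UMIs. The order T cell-like above Langerhans cell-like above all others held in both mice. Basal IFE was at 1.34 and 1.63 CPM. The log2 difference from basal IFE was 10.26 ± 0.130 in T cell-like cells (adjusted p = 2.98e-31, edgeR) and 8.26 ± 0.138 in Langerhans cell-like cells (adjusted p = 6.54e-29, edgeR). The T cell-like and Langerhans cell-like classes, which made up 0.684% and 1.91% of kept cells in mouse 1 and 0.320% and 1.62% in mouse 2, held 53.5% and 35.8% of all S100a4 UMIs in mouse 1 and 44.7% and 36.6% in mouse 2. Outside them, dermal-like cells had 38.3 and 13.3 CPM on 8 and 5 UMIs, Merkel-like cells 12.1 and 0 CPM on 2 and 0 UMIs, and every other named class lay between 0 and 2.48 CPM.

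Among the named classes, S100a6 and S100a13 were also highest in T cell-like cells. S100a6 was at 2461 and 2971 CPM, higher than in basal IFE by 3.78 ± 0.206 on the log2 scale (adjusted p = 1.94e-15, edgeR), and 100% and 97.4% of T cell-like cells had a UMI after thinning. S100a13 was at 233 and 235 CPM, higher by 2.54 ± 0.158 (adjusted p = 4.63e-14, edgeR). In Langerhans cell-like cells S100a6 was at 464 and 403 CPM (1.48 ± 0.224, adjusted p = 1.56e-06, edgeR) and S100a13 at 93.0 and 106.5 CPM (1.67 ± 0.134, adjusted p = 4.50e-12, edgeR). Across the 18 named classes the order of S100a6 was T cell-like, then upper follicle-like and Merkel-like (1066 and 946 CPM), whose mouse values overlapped, then dermal-like (761 and 701 CPM), then Langerhans cell-like and dividing hair follicle-like, which overlapped. Unnamed clusters reached the level of upper follicle-like cells. The cluster led by Sfrp1 (873 and 1287 cells) was at 1053 and 1232 CPM and held 24.2% of all S100a6 UMIs in each mouse, and the cluster led by Tagln (179 and 342 cells) was at 1002 and 1293 CPM.

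The epithelial members were low in the immune classes. S100a16 was at 69.0 and 64.6 CPM in Langerhans cell-like cells and at 68.0 and 79.8 CPM in T cell-like cells, falling by 2.35 ± 0.115 (adjusted p = 3.39e-17, edgeR) and 2.56 ± 0.142 on the log2 scale (adjusted p = 3.08e-15, edgeR). S100a14 was at 51.2 and 54.9 CPM and at 44.7 and 96.8 CPM, falling by 2.07 in each (adjusted p = 5.11e-14 and 3.43e-11, edgeR). S100a11 and S100a10 lay closer to their basal levels. S100a11 was at 845 and 676 CPM in Langerhans cell-like and 999 and 1011 CPM in T cell-like cells, with log2 differences of -0.04 (adjusted p = 0.785, edgeR) and 0.02 (adjusted p = 0.956, edgeR). S100a10 was at 421 and 396 CPM in Langerhans cell-like cells, falling by 0.52 ± 0.0956 (adjusted p = 3.20e-05, edgeR), and at 755 and 663 CPM in T cell-like cells (-0.07, adjusted p = 0.669, edgeR). In Langerhans cell-like cells 3 members were called higher and 3 lower, where 52.7% of all genes were called (27.7% higher and 25% lower). In T cell-like cells 3 were called higher and 2 lower, where 34.2% of all genes were called (17.1% higher and 17.2% lower). The median log2 differences over the 10 members were -0.97 and -0.71, against -0.05 and -0.17 over all genes. Over the 8 members with enough UMIs for a fold they were -0.28 and -0.02.

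**Figure D3:**
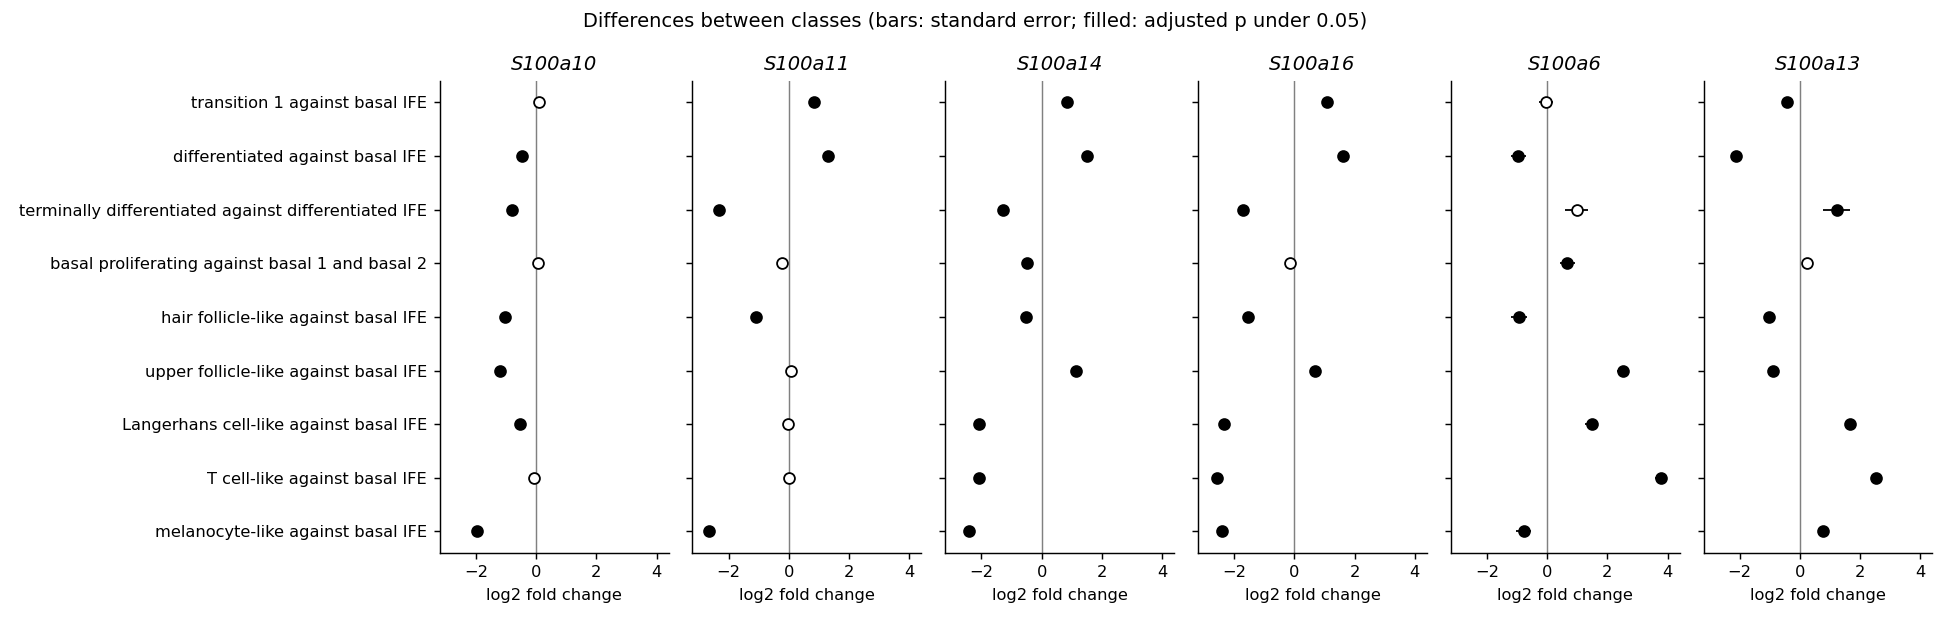
Log2 difference ± SE (x axis) of S100a6, S100a10, S100a11, S100a13, S100a14 and S100a16 in the 9 comparisons, from the edgeR fit. Filled points passed an adjusted p of 0.05. S100a13 was at 2.54 in T cell-like and -2.12 in differentiated IFE, and S100a16 at -2.56 and 1.62.

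Melanocyte-like cells (437 and 727 cells, with Pmel at 3533 and 3701 CPM) were the main source of S100a8 UMIs. S100a8 was at 14.7 and 15.3 CPM there, on 68 UMIs in 59 cells and 126 UMIs in 100 cells, with at most 3 in any cell. These cells were 69.4% and 69.0% of all cells with an S100a8 UMI and held 70.1% and 69.6% of its UMIs. Of melanocyte-like cells, 13.5% and 13.8% had a UMI of it (5.19% and 4.33% after thinning to 3000 UMIs), against 0% of basal 1 cells in both mice, at a median depth of 10464 and 10663 UMIs there. Over both mice, with the UMIs of the basal subtypes pooled and not averaged, the level was 187 times that of basal IFE (exact 95% interval 72.0 to 694, 194 UMIs against 4). S100a8 was also called higher in the fit (adjusted p = 8.13e-13, edgeR). The Langerhans cell-like and T cell-like classes had 0 UMIs of S100a8, so melanocyte-like cells were at least 18.8-fold higher than the first and at least 4.90-fold higher than the second, against a floor of 3 UMIs over both mice. Dermal-like cells had 0 and 13.3 CPM, on 0 and 5 UMIs, and the melanocyte gene Dct had 2 and 18 UMIs there. Granulocytes are the usual source of S100a8, and of the 10 granulocyte markers 3 and 2 were detected in the Langerhans cell-like class, with Ly6g, Camp, Ngp, Elane and Mpo at 0 in both mice. That class had 0 S100a8 UMIs, and a granulocyte source of the S100a8 UMIs in melanocyte-like cells was not tested. Called doublets made up 8.92% and 10.3% of melanocyte-like cells, and their part in the result was checked by leaving them out, which did not end the call.

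The other members were mostly low in melanocyte-like cells. S100a11 was at 139 and 188 CPM and fell by 2.64 ± 0.116 on the log2 scale (adjusted p = 2.88e-18, edgeR). S100a16 fell by 2.40 ± 0.104 (81.7 and 86.7 CPM, adjusted p = 1.95e-18, edgeR) and S100a14 by 2.40 ± 0.122 (52.5 and 58.6 CPM, adjusted p = 1.12e-16, edgeR). S100a10 fell by 1.96 ± 0.103 (199 and 196 CPM, adjusted p = 2.54e-16, edgeR), S100a6 by 0.78 ± 0.2502 (109.5 and 127 CPM, adjusted p = 0.00874, edgeR), S100a4 by 1.79 ± 0.530 on 2 and 4 UMIs (adjusted p = 0.00497, edgeR) and S100a3 by 1.31 ± 0.536 on 5 and 9 UMIs (adjusted p = 0.0394, edgeR). With only cells under 5% mitochondrial UMIs, S100a6 (-0.33), S100a4 (-0.33) and S100a3 (-0.50) were not called. S100a13 was higher, at 73.0 and 68.3 CPM, by 0.77 ± 0.117 (adjusted p = 1.49e-06, edgeR). In all, 2 members were called higher and 7 lower, where 55.3% of all genes were called (30.1% higher and 25.2% lower), and the member median was -1.74 against 0.02 over all genes.

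The alarmin partner S100a9 did not follow S100a8 in its level across classes. It had 1 UMI in all melanocyte-like cells of mouse 1 and 0 in mouse 2, and 0 in the Langerhans cell-like class. Of 85 cells with S100a8 and 30 with S100a9 in mouse 1, 2 had both, and of 145 and 68 in mouse 2, 4 had both. Over all kept cells 0.394% and 0.572% had S100a9, a lower share than among cells with S100a8. Whether the 2 genes go together in single cells was not tested. Basal 1 had 0 UMIs of either gene in both mice. S100a9 calls in KC classes rested on few cells. Transition 1 had 20 UMIs in 5 cells of mouse 2 and 0 in mouse 1 (called higher, adjusted p = 0.0179, edgeR, but at -0.47 on the log2 scale without mouse 2), differentiated IFE 16 UMIs in 3 cells and 10 in 2 cells, and hair follicle-like cells 5 UMIs in 5 cells and 41 in 14 cells, of which 1 cell held 16. S100a8 in differentiated IFE came from 1 cell in each mouse. In the fit, which averages the basal subtypes on the log2 scale, the S100a9 differences were 3.07 in differentiated IFE and 3.40 in hair follicle-like cells. Over both mice, with the UMIs of the basal subtypes pooled, S100a9 was 3.42 times its basal IFE level in differentiated IFE (exact 95% interval 1.95 to 5.94) and 6.08 times in hair follicle-like cells (3.77 to 9.92). These intervals, and that of S100a8 in melanocyte-like cells, pool the mice and treat UMIs as independent, which UMIs of 1 cell are not.

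**Figure D4:**
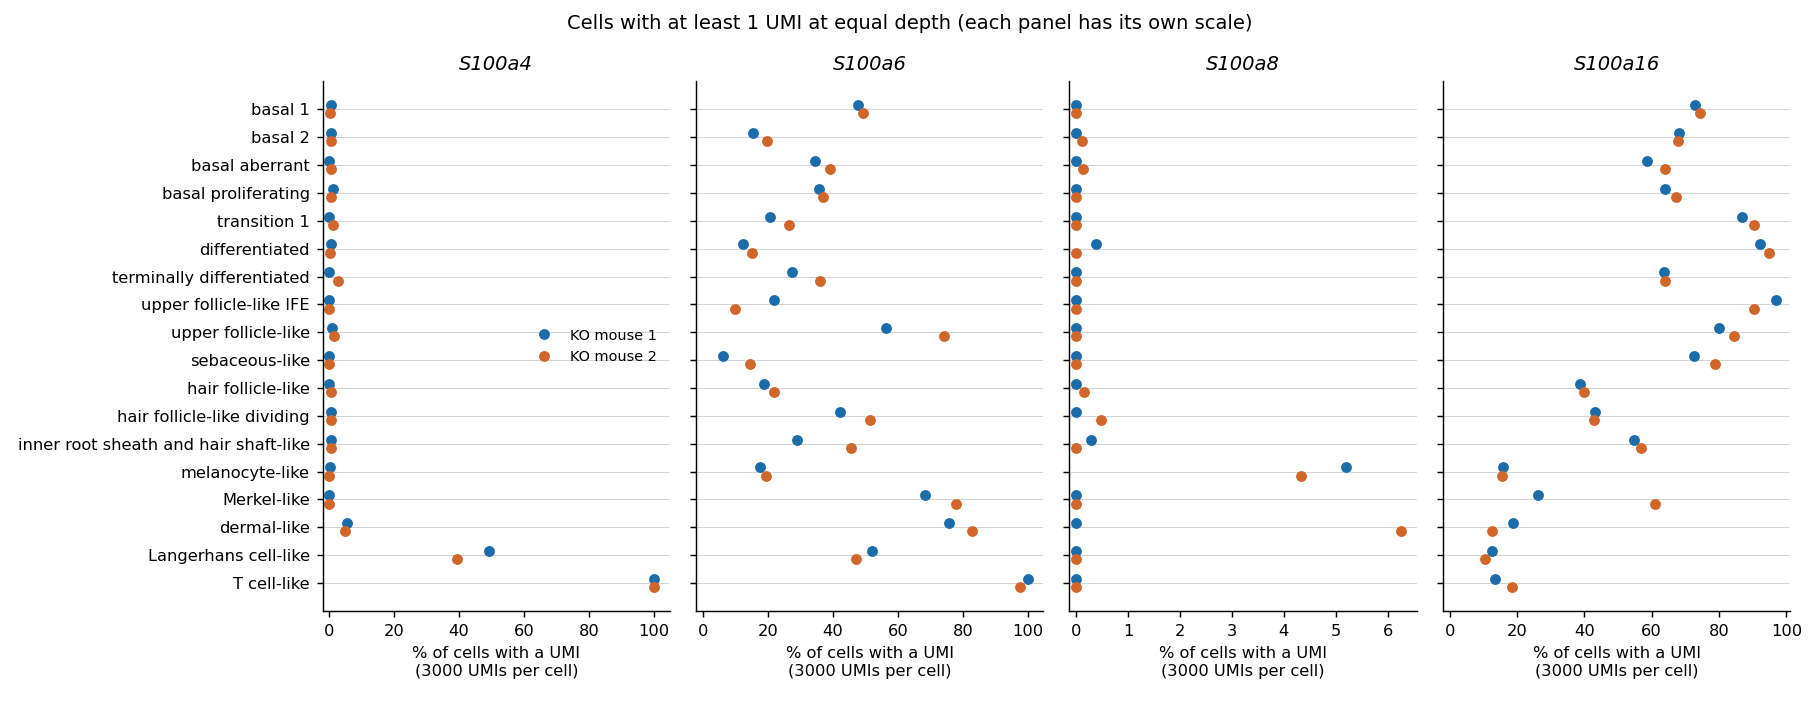
Percent of cells with at least 1 UMI (x axis) of S100a4, S100a6, S100a8 and S100a16 in each class (y axis) after thinning to 3000 UMIs per cell, with 1 point per mouse. S100a16 was in 92.2% and 94.8% of differentiated IFE cells, S100a4 in 100% of T cell-like cells in both mice, and S100a8 in 5.19% and 4.33% of melanocyte-like cells.

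S100a16 was found in most single IFE cells of the stages below, but in a smaller share of cells in several follicle classes. As means of the mice after thinning, 39.4% of hair follicle-like and 43.0% of dividing hair follicle-like cells had a UMI. The mean was 55.8% in inner root sheath and hair shaft-like cells and 82.2% in upper follicle-like cells. After thinning, 72.9% and 74.4% of basal 1, 86.7% and 90.4% of transition 1, 92.2% and 94.8% of differentiated and 63.6% and 63.9% of terminally differentiated IFE cells had a UMI. Before thinning, 97.6% and 98.3% of basal 1 cells and 98.8% and 100% of differentiated cells did. Melanocyte-like cells were at 15.8% and 15.6% after thinning (39.4% and 44.0% before) and Langerhans cell-like cells at 12.5% and 10.4% (22.8% and 28.5% before). Thinning kept 19183 of 19488 cells, but only 22 of 43 and 36 of 49 terminally differentiated cells. The thinned shares of that class therefore describe its deeper cells only.

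S100a3 was low in all classes, and its sums depended on few cells. It was at 4.69 and 7.32 CPM in differentiated IFE, on 27 and 47 UMIs of which 1 cell held 11 and 28, and it was called higher there by 1.53 ± 0.358 on the log2 scale (adjusted p = 6.16e-04, edgeR). In terminally differentiated IFE it was at 17.9 and 38.8 CPM (1.99 ± 0.558 against differentiated IFE, adjusted p = 0.00798, edgeR), where 17 of the 21 UMIs of mouse 2 came from 1 cell and the difference was 0.10 when only cells under 5% mitochondrial UMIs were summed. In upper follicle-like cells it was at 11.01 and 7.88 CPM (1.78 ± 0.317, adjusted p = 3.14e-05, edgeR), with 41 of 71 UMIs of mouse 1 in 1 cell and 10 of 52 of mouse 2 in 1 cell.

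Known partners and receptors of S100 proteins were taken from a list of 20 genes, of which 19 were tested (Il1a was not). Unlike the members, these genes were not kept out of the clustering, so their differences between classes are a description. The shares of the 19 tested genes that were called were 47.4% in transition 1 (7 higher, 2 lower, against 30% of all genes), 68.4% in differentiated IFE (8 higher, 5 lower, against 55.8%), 57.9% in terminally differentiated IFE (2 higher, 9 lower, against 26.3%) and 52.6% in basal proliferating KCs (3 higher, 7 lower, against 29.3%). They were 63.2% in hair follicle-like cells (0 higher, 12 lower, against 38.2%) and 63.2% in upper follicle-like cells (5 higher, 7 lower, against 47.5%). They were 78.9% in Langerhans cell-like (8 higher, 7 lower, against 52.7%), 68.4% in T cell-like (4 higher, 9 lower, against 34.2%) and 68.4% in melanocyte-like cells (5 higher, 8 lower, against 55.3%).

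Annexin A1 (Anxa1), the partner of S100a11, was at 422.5 and 330.1 CPM in basal and 1208 and 1035 CPM in differentiated IFE, a log2 difference of 1.88, in the same direction as S100a11. In T cell-like cells it was at 106 and 67.8 CPM, where S100a11 stayed near its basal level. The ratio of S100a11 to Anxa1 UMIs was 2.18 and 2.65 in basal 1, 1.61 and 1.84 in differentiated IFE and 9.46 and 14.9 in T cell-like cells. Annexin A2 (Anxa2), the partner of S100a10, was at 1064 and 1074 CPM in differentiated and 1135 and 1122 CPM in basal IFE. The ratio of S100a10 to Anxa2 was 0.617 and 0.556 in basal 1, 0.414 and 0.374 in differentiated IFE, 1.16 and 1.02 in Langerhans cell-like cells and 1.08 and 1.05 in T cell-like cells. Ahnak, a large scaffold protein bound by that complex, was at 820.3 and 794 CPM in differentiated and 549.7 and 457 CPM in basal IFE.

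Of the transglutaminases, Tgm1 was at 35.5 and 27.2 CPM in differentiated and 0.464 and 1.15 CPM in basal IFE, and Tgm3, itself a marker used to name the differentiated class, at 57.2 and 62.4 CPM in differentiated IFE. Myh9, the myosin bound by S100a4, was at 302 and 283 CPM in T cell-like and 116 and 109 CPM in basal IFE. Sugt1 and Cacybp, which bind S100a6, parted in T cell-like cells. Sugt1 was at 166 and 128 CPM against 45.1 and 40.2 CPM in basal IFE, and Cacybp at 204 and 203 CPM against 163 and 177 CPM. Of the alarmin receptors, Tlr4 was at 3.80 and 5.12 CPM and Ager at 10.1 and 7.44 CPM in Langerhans cell-like cells, where S100a8 and S100a9 had 0 UMIs. In melanocyte-like cells, where S100a8 was detected, Tlr4 was at 1.95 CPM in each mouse.

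Of 6 other S100 genes, S100a1 and S100b passed the filter and S100a5, S100a7a, S100g and S100z did not. S100a1, which lies head to head with S100a13, was at 99.6 and 102.5 CPM in melanocyte-like, 94.8 and 88.1 CPM in sebaceous-like, 79.1 and 68.4 CPM in Langerhans cell-like and 9.04 and 9.11 CPM in basal IFE cells. Like S100a13 it was called lower in differentiated IFE and higher in Langerhans cell-like, T cell-like and melanocyte-like cells, but unlike S100a13 it was called higher in upper follicle-like cells (23.4 and 27.6 CPM). S100b, a melanocyte and nerve marker, was at 1.95 and 2.19 CPM in melanocyte-like and 0.171 and 0.186 CPM in basal IFE cells. Its highest mean among the named classes was 63.1 CPM, in the small dermal-like class (40 and 68 cells).

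Likeness between genes was described over the 18 classes as Pearson's r of log2(CPM + 10) averaged over the mice. Points share libraries and related cells, so no p is given. Among members the closest pair was S100a14 and S100a16 (r = 0.95), followed by S100a4 and S100a13 (0.72), S100a6 and S100a13 (0.69), S100a4 and S100a6 (0.62) and S100a10 and S100a11 (0.61), whereas S100a13 ran opposite to S100a16 (-0.76) and S100a14 (-0.75). Within basal 1, Spearman's rho of the thinned counts of S100a14 and S100a16 in single cells was 0.0191 and 0.0672. It was 0.265 and 0.113 in upper follicle-like and -0.0788 and -0.225 in T cell-like cells. With few UMIs of each gene per thinned cell, counting noise pulls rho toward 0. These values therefore do not tell whether the 2 genes go together in single cells. Of 6193 genes that reached 50 CPM in some class, Perp and Trim29 were most like S100a16 (0.95 and 0.94) and Esrp1 and Gm16136 most like S100a14 (0.94 and 0.93). Ly6d and Anxa2 were most like S100a11 (0.87 and 0.85) and B4galt1 and Ccnd3 most like S100a10 (0.86 and 0.85). Anxa6 and Capns1 were most like S100a13 (0.96 and 0.91) and Arhgef1 and Carhsp1 most like S100a6 (0.82 and 0.79). The genes most like S100a4 were AB124611 and Neurl3 (0.99 each), those most like S100a8 were Rhoj and Pmp22 (0.99 each), and those most like S100a3 were Elmod1 and Ctnnbip1 (0.90 and 0.88). The mean of S100a8 was 15.02 CPM in melanocyte-like cells and at most 6.665 CPM in the other named classes, so its r mainly reflects that 1 class. For S100a9 the highest values were 0.58, for Ccdc122 and Rapgef5. Its mean was at most 3.23 CPM in any named class, so with 10 CPM added its r rests on small differences.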

How the data were processed

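The deposited values are raw UMI counts of each gene in each called barcode, which the authors made with Cell Ranger 3.0.2 (mm10, per the submitters' processing notes) and left without scaling. The labels name version 1 of the 10x chemistry and the methods version 3.1. Members and lists were chosen with earlier results of these data known.

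Cells within 900 and 7700 genes and below 10% mitochondrial UMIs were integrated in Seurat 5.3.0 (R 4.3.3; 2000 variable genes, 30 dimensions, Louvain resolution 0.8), with 18 S100 rows left out, and IFE cells were clustered again. A subcluster of IFE cells was named from fixed marker lists where at least 2 of its 10 leading genes and 3 enriched markers supported the name. Clusters of all cells also needed 3 enriched markers. For them fewer leading genes sufficed, or none where the mean enrichment of the list was high enough. Scrublet (scanpy 1.11.5, Python 3.11.15) marked 144 (1.89%) and 360 (3.03%) cells at a score of 0.25, and these were kept.

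UMI counts were summed per mouse and class and fitted in edgeR 4.0.16 (TMM, filterByExpr, quasi-likelihood F-test, Benjamini-Hochberg), with 17 residual degrees of freedom. Same-numbered sums come from the same animal, so they are paired, and the difference between mice correlated between classes with r from -0.01 to 0.29 (median 0.06, 136 class pairs). The main fit had no mouse term. With 2 animals, n is 2 for each class. Alternatives were DESeq2 1.42.0, other scalings, filters, doublets, mitochondrial limit, resolution and the mouse as a block. On simulated data for differentiated against basal IFE (11519 genes, 200 changed), 38.8% of 1.5-fold, 92.5% of 2-fold and 100% of 4-fold changes were recovered. The simulation gave all genes the same spread and every class the basal profile. Its spread was set by hand, above the common spread fitted to the data, and it held no effect of the mouse. Its changed genes had to reach a level in basal IFE that S100a3, S100a4, S100a8 and S100a9 did not. The recovery therefore does not cover these members. CPM intervals are exact 95% Poisson intervals and shares exact binomial, which cover counting error only, and a count of 0 was bounded at 3 counts. A fold was given for 81 of 90 pairs of member and comparison. Named genes were the members, the fixed partner list and the 2 most similar genes of each member. Figures were drawn with matplotlib 3.10.9.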

Additional observations from a re-analysis of the deposited data

Results flagged for a closer look

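S100a9 was found outside the named classes. A cluster of 66 and 106 IFE cells led by Fn1, which kept no name and entered no comparison, held 11 S100a9 UMIs in 4 cells of mouse 1 and 26 UMIs in 9 cells of mouse 2 (19.4 and 28.7 CPM). Over both mice this is 25.16 CPM, 40.2 times the level of basal IFE with the UMIs of its subtypes pooled (exact 95% interval 24.3 to 67.1, 37 UMIs against 31). The interval treats UMIs as independent, which UMIs of 1 cell are not. The highest cell held 8 UMIs in mouse 1 and 9 in mouse 2, and without it the level was 5.39 and 18.97 CPM. All 10 granulocyte markers of the list were at 0 in this cluster in both mice.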

How the results depend on the processing

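Over the members, comparisons and settings with a test, 725 values kept direction and side of the threshold, 23 lost the call, 13 gained it and 23 turned direction. The number of members called in transition 1 went from 5 to 3, and in hair follicle-like cells from 7 to 4, when only cells under 5% mitochondrial UMIs were summed. Calls over all genes fell as well, from 4130 of 13788 to 1731 of 11367 in transition 1. In hair follicle-like cells they fell from 5267 to 2420 of the same totals. In basal proliferating KCs the number of members called went from 3 to 1 with DESeq2, without called doublets, at resolution 1.2 and with the wider terminally differentiated class. Calls over all genes there were 4200, 4020, 3773 and 4136 in these settings, against 4045 in the main setting. With the mouse as a block, no count of members moved by more than 1.5 times, and S100a6 in terminally differentiated IFE (0.98, adjusted p = 0.00304, edgeR) and S100a11 in basal proliferating KCs (-0.21, adjusted p = 0.0379, edgeR) gained a call. The turned values were as follows, and the cause was not tested. Under 5% mitochondrial UMIs, S100a3, S100a6 and S100a10 were at 0.39, 0.58 and -0.0131 in transition 1, S100a3 and S100a11 at 1.34 and 0.0791 in basal proliferating KCs, S100a3 at 0.11 in hair follicle-like, S100a11 at 0.15 in Langerhans cell-like and S100a10 at 0.10 in T cell-like cells. With plain totals, S100a10 was at -0.0532 in transition 1 and 0.0267 in T cell-like cells. With RLE factors and with DESeq2, S100a11 was at 0.0582 and 0.0577 in Langerhans cell-like and S100a10 at 0.0754 and 0.0778 in T cell-like cells. S100a10 was at 0.0004 in T cell-like cells with no filter, and S100a11 at 0.0352 in Langerhans cell-like cells without doublets. At resolution 1.2, S100a4 and S100a6 were at 0.0676 and 0.14 in hair follicle-like, S100a9 at -0.78 in upper follicle-like, S100a11 at 0.017 in Langerhans cell-like and S100a10 at 0.0302 in T cell-like cells. With the wider terminally differentiated class, S100a3 was at -0.0419 there and S100a11 at -0.0019 in upper follicle-like cells. Of these, S100a3 in terminally differentiated IFE and S100a6 in hair follicle-like cells were calls of the main setting. Without mouse 2, S100a9 was at -0.47 in transition 1. At resolution 1.2 no cluster took the name differentiated, so its comparisons were not run there. One mouse alone gives no test. Plain totals moved the median gene by -0.26 (differentiated IFE and Langerhans cell-like) to 0.27 (terminally differentiated IFE) on the log2 scale, and the share of calls that were higher from 51.2% to 35.1% in differentiated IFE, from 49.9% to 31.9% in transition 1, from 48.5% to 75.9% in terminally differentiated IFE, from 58.5% to 76.2% in basal proliferating KCs, from 52.7% to 72.0% in hair follicle-like, from 54.5% to 66.8% in upper follicle-like, from 52.6% to 39.4% in Langerhans cell-like and from 54.4% to 64.6% in melanocyte-like cells.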
